A study of Mus musculus with 19 samples.

Results

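The plasminogen activation system was followed in mouse hepatic stellate cells (HSCs) during their first hours and days on plastic. It was represented by 6 genes chosen by name and matched by Ensembl identifier among the 55487 genes of the count table: Plat, Plau, Plaur, Serpine2, Anxa2 and S100a10. The choice was made with earlier results of these data known. All 6 had enough counts to be tested, beside 15138 genes tested in all.

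Plasminogen circulates as an inactive precursor. Plat encodes tissue-type plasminogen activator (tPA) and Plau encodes urokinase (uPA), the proteases that cut it to plasmin, which dissolves fibrin and trims extracellular matrix. Plaur encodes the surface receptor of urokinase, Serpine2 encodes protease nexin-1, a serpin that inhibits both activators and thrombin, and Anxa2 and S100a10 encode the annexin A2 and p11 subunits of a membrane complex that binds plasminogen and tPA. In an uninjured liver HSCs hold retinoid droplets, and they turn into matrix-producing myofibroblasts after injury or on a stiff culture surface.

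Bulk RNA sequencing covered 19 samples from healthy, untreated male Balb/c mice aged 23 to 24 weeks, and the labels name no genetic change in any group. HSCs were sorted by their ultraviolet fluorescence. Fresh cells gave 2 samples (0 h), and cultures of 3, 6, 12, 18 and 96 h gave 3 samples each and those of 24 h gave 2, all on collagen-coated plates in medium with 10% serum, which was renewed at 3 h and 24 h. Each sample stood for 2 technical repeats of an independent repeat. How many mice went into an isolation is not given in the sources used here, and the cultures modelled activation without the other cells of the liver.

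In the GRCm38 assembly with the GENCODE M21 annotation, Plat (ENSMUSG00000031538) lay on the plus strand at chr8:22757727-22782844 and Plau (ENSMUSG00000021822) on the plus strand at chr14:20836660-20843385. Plaur (ENSMUSG00000046223) lay at chr7:24462484-24475968 on the plus strand, and Serpine2 (ENSMUSG00000026249) at chr1:79794197-79861180 on the minus strand. Anxa2 (ENSMUSG00000032231) lay at chr9:69453620-69491795 and S100a10 (ENSMUSG00000041959) at chr3:93555080-93564643, both on the plus strand. All 6 are protein-coding. Only Anxa2 overlapped other annotated genes, the antisense gene Gm16144, which shared 98 exon bases with it, and the miRNA gene Mir3109, and both had 0 counts in the whole series.

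The 250 bases before the transcription start were on file for Plaur, Anxa2 and Serpine2 (RefSeq, GRCm38.p6). Those of Plaur and Anxa2 are printed because both levels differed among the times, in different ways, and because both windows hold the letters TGANTCA (N is any base; capitals below), the form bound by AP-1, a Fos and Jun transcription factor family. The Plaur window is chr7:24462233-24462482 on the plus strand and the Anxa2 window is chr9:69453433-69453682 on the plus strand.
Plaur: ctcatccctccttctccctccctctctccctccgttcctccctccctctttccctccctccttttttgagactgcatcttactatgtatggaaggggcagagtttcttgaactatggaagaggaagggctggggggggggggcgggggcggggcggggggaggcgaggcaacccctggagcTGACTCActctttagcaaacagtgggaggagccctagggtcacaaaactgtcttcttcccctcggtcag
Anxa2: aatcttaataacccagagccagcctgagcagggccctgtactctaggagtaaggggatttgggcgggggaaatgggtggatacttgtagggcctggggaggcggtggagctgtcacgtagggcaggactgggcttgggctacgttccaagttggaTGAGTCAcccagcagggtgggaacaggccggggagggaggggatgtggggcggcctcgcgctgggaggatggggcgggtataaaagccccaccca
The match began 69 bases before the RefSeq start site of Plaur and 95 bases before that of Anxa2, and the Serpine2 window (chr1:79858666-79858915, minus strand) held none. RefSeq and GENCODE starts differ. The Anxa2 window ran past the GENCODE start of the gene (69453620), and the Serpine2 window lay inside the GENCODE gene, downstream of its start (79861180). The letters read the same on both strands once N is allowed for, and 6.75% of all 32851 RefSeq mouse promoter windows held them in these 250 bases. The match is a description of the sequence, not of binding.

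Libraries held 2073171 to 7690892 counts (median 4954915), so that 3 counts, the limit that a count of 0 allows, were worth 0.386 to 1.51 CPM, counts per 1000000 counts of the library. This limit covers counting error only. CPM values were scaled by edgeR's trimmed mean of M-values (TMM). As a check of the labelled cell type, 10 stellate markers summed to 28500 to 32200 CPM at 0 h, and this sum was 1980 CPM in both 24 h samples and 2850 to 3230 CPM at 96 h. Dcn made up most of it, with a mean of 19200 CPM at 0 h and 1930 CPM at 96 h. Des changed little between these times, from 123 to 112 CPM, and the other stellate markers fell further. Markers of other liver cells were also present at 0 h. The 10 hepatocyte markers summed to 4330 to 8760 CPM at 0 h and to 45 to 128 CPM at 96 h, the 10 Kupffer cell and leukocyte markers to 413 to 418 CPM and 23.3 to 46.2 CPM, and the 10 endothelial markers to 742 to 1020 CPM and 22.6 to 178 CPM. The 6 cholangiocyte and 5 mesothelial markers never summed to more than 19.1 CPM. In such bulk samples fewer cells of a type and less RNA per cell cannot be told apart.

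Plaur, the urokinase receptor, rose over the first 12 h and was lower again at 96 h. Fresh HSCs had 0 and 3.01 CPM, which were 0 and 6 counts. At 3 h the samples had 31.5, 9.59 and 19.2 CPM in the order of their replicate numbers, at 6 h 77.7, 87.1 and 52.1 CPM, and at 12 h 145, 194 and 239 CPM. All samples of each of these times lay above all samples of the time before. At 18 h the values were 106, 330 and 112 CPM, at 24 h 60.9 and 119 CPM, and at 96 h 37.3, 51.4 and 27.3 CPM. One 18 h sample thus stood far above the others of its time, and the 96 h samples lay below every sample of 6 h to 24 h. The share of all genes tested whose times separated in these ways was not counted.

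**Figure D1:**
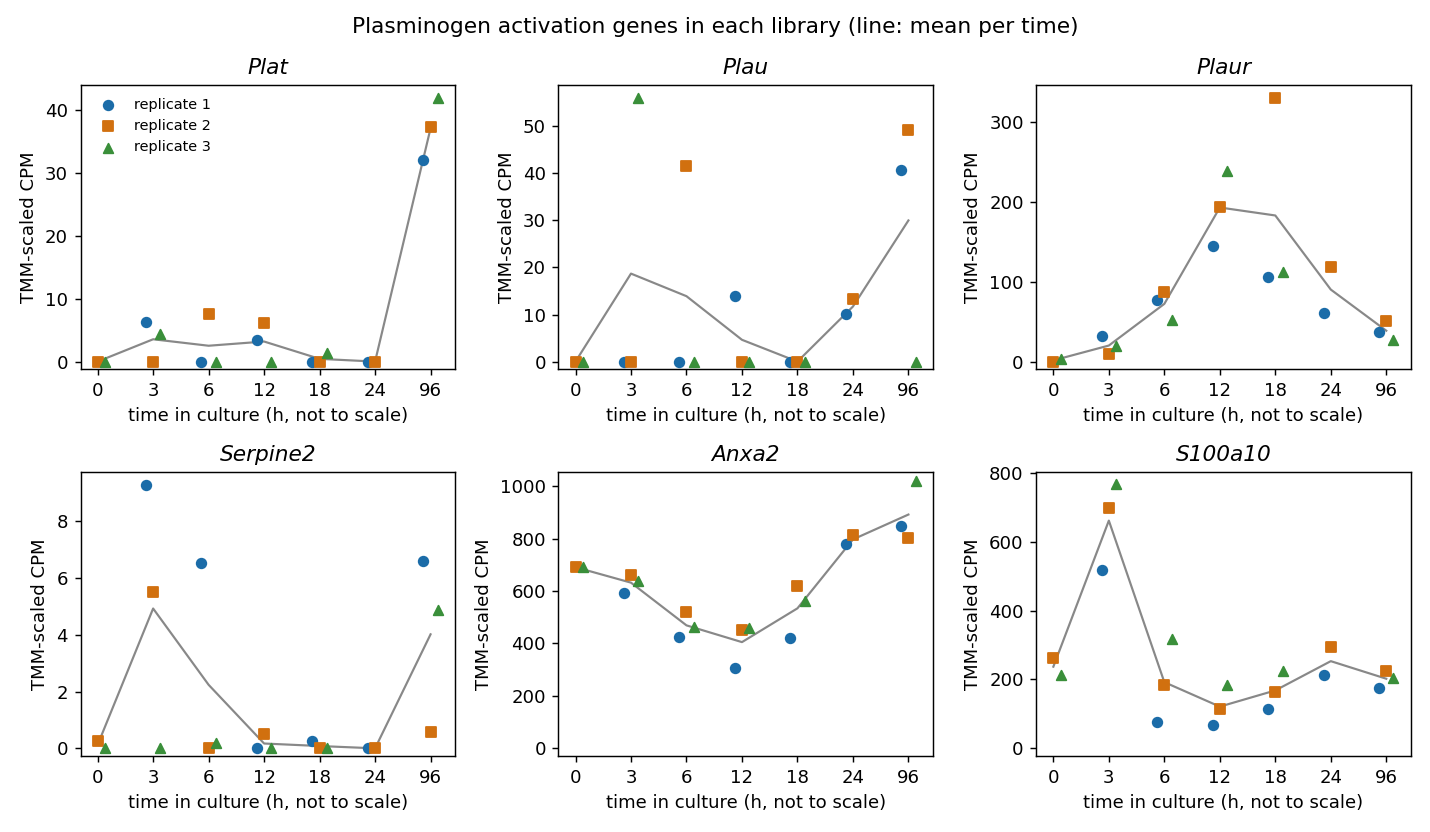
TMM-scaled CPM of the 6 genes in each of the 19 libraries (points, shaped by replicate number) against hours in culture, with the mean per time as a line (times evenly spaced, each panel with its own vertical scale). Plaur had means of 193 and 183 CPM at 12 h and 18 h, Plat was at 32.1 CPM or more at 96 h alone, and S100a10 was highest at 3 h.

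A gene was called when its fold change exceeded 2 and its Benjamini-Hochberg adjusted p in edgeR's quasi-likelihood test was below 0.1. Against 0 h, Plaur was called higher at all 6 times. Its log2 fold change was 4.02 at 3 h (SE 0.98, edgeR adjusted p = 0.0268), 5.87 at 6 h (SE 1.02, adjusted p = 0.00128) and 7.28 at 12 h (SE 1.07, adjusted p = 0.000178). It was 7.20 at 18 h (SE 1.07, edgeR adjusted p = 0.000213), 6.19 at 24 h (SE 1.06, adjusted p = 0.0011) and 4.96 at 96 h (SE 1.00, adjusted p = 0.0039). The size of these folds hangs on the 6 counts of the 0 h replicate 3. Without 0 h replicate 2, which had none, they were 2.76 at 3 h, no longer called (edgeR adjusted p = 0.18), and 3.67 to 5.99 at the later times, all still called. Fitted to the samples of 0 h and the one other time alone, Plaur was not called at 3 h (edgeR adjusted p = 0.301) or at 96 h (adjusted p = 0.106).

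No other of the 6 genes was called against 0 h in either direction, so that 1 of 6 was higher at each time. Of all genes tested, 4.19% were called higher at 3 h and 6.98% after 6 h. The share was 8.6% for 12 h, 7.64% for 18 h, 5.65% for 24 h and 5.83% for 96 h. The count of genes lower was 0 of 6 at every time with edgeR, which called 1.39%, 4.35%, 9.1%, 8.21%, 3.86% and 5.03% of all genes lower at the 6 times in order. An unadjusted p under 0.05 in either direction was found for 2, 2, 2, 1, 1 and 2 of the 6 genes. DESeq2 called 3, 2, 4, 1, 2 and 3 of them, against 10.1%, 17.1%, 22.5%, 20.4%, 14.8% and 15.7% of all genes in either direction. Of the 4 at 12 h, 2 were lower, Anxa2 and S100a10.

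**Figure D2:**
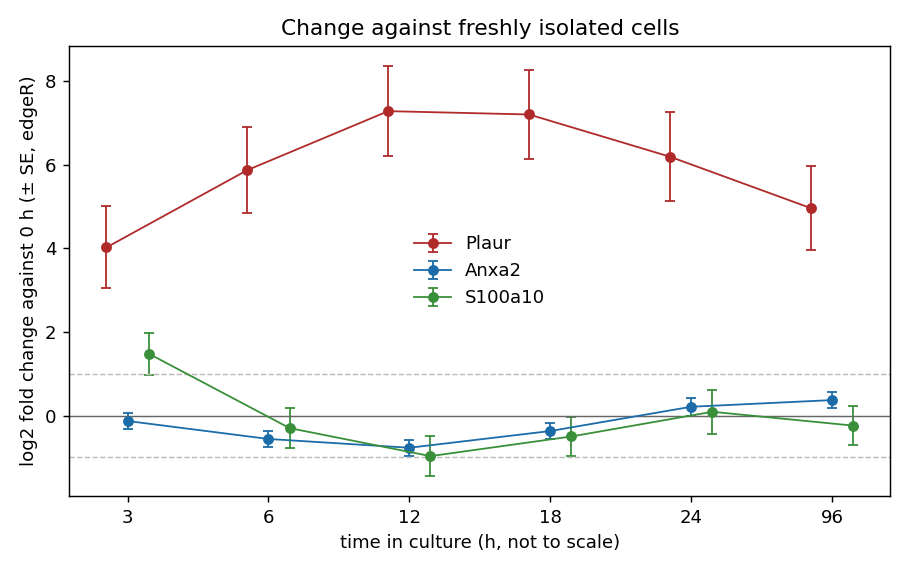
Log2 fold change against 0 h (points, with the edgeR standard error as bars) of Plaur, Anxa2 and S100a10 at 6 times in culture; dashed lines mark a 2-fold change. Plaur lies between 4.02 and 7.28 at all times, Anxa2 between -0.77 and 0.37, and S100a10 goes from 1.48 at 3 h to -0.97 at 12 h.

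Between neighbouring times in culture, Plaur was not called in the edgeR fit of all samples. Its step from 3 h to 6 h was called without 0 h replicate 2 (edgeR adjusted p = 0.072), without 0 h replicate 3 (adjusted p = 0.0644) and when the samples of these times were fitted alone (adjusted p = 0.079), as was its step from 6 h to 12 h in the last way (adjusted p = 0.0942). Over the longer spans from 3 h to 12 h and from 12 h to 96 h, which were compared after the values had been seen, it was called in both. The 12 h level exceeded the 3 h level with a log2 fold change of 3.26 (SE 0.69, edgeR adjusted p = 0.00478), and the differences between same-numbered samples were 2.18, 4.28 and 3.61. The 96 h level was below the 12 h level with a log2 fold change of -2.32 (SE 0.66, edgeR adjusted p = 0.0323), with -1.95, -1.91 and -3.11 between same-numbered samples. Without 96 h replicate 3 the second difference was -2.12 and no longer called (edgeR adjusted p = 0.125). Plaur is also known in leukocytes. The sum of the Kupffer cell and leukocyte markers was 413 to 418 CPM at 0 h and 33.7 to 54.2 CPM at 12 h, where Ptprc, Clec4f, Adgre1, Vsig4 and Tyrobp were at 0. Csf1r and Lyz2 still had means of 23.9 and 11.6 CPM at 12 h, against 63.1 and 109 CPM at 0 h. Cd68 had 2.93 CPM at 12 h and 0.752 CPM at 0 h. The sum of the stellate markers was 28500 to 32200 CPM at 0 h and 4930 to 5850 CPM at 12 h. The part of these cell types in the Plaur values was not tested.

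Plat, the gene of tPA, was found mainly at 96 h. It had 0 counts in both 0 h and both 24 h samples. In the order of replicate numbers it had 6.3, 0 and 4.36 CPM at 3 h, 0, 7.56 and 0 CPM at 6 h, 3.47, 6.11 and 0 CPM at 12 h and 0, 0 and 1.3 CPM at 18 h. At 96 h the values were 32.1, 37.3 and 41.9 CPM, from 112, 194 and 249 counts. The 96 h samples lay above all 16 others, as they did for 4.68% of the genes tested. The mean at 96 h, 37.1 ± 4.92 CPM (SD, n = 3), was 24.7-fold the limit of 3 counts in the shallower 0 h sample. That limit covers counting error only. With zeros scattered over the earlier times Plat was not called against 0 h (edgeR adjusted p = 0.161). It was called with DESeq2 (adjusted p = 0.0403) and when edgeR was fitted to the 0 h and 96 h samples only (adjusted p = 0.00931). Endothelial cells are a known source of tPA, and their 10 markers summed to 22.6 to 178 CPM at 96 h against 742 to 1020 CPM in fresh cells. Stab2, Lyve1 and Tek were at 0 at 96 h, Lyve1 also in the fresh samples. Others were still found at 96 h, with means of 19.9 CPM for Ptprb, 15.6 CPM for Pecam1 and 14.2 CPM for Cdh5. The part of endothelial cells in the Plat values was not tested.

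Plau, the gene of urokinase, was found in some samples of a time and not in others. It had 0 counts in 12 of the 19 libraries, among them all samples of 0 h and 18 h. The samples in which it was found had 56 CPM at 3 h (replicate 3), 41.6 CPM at 6 h (replicate 2) and 13.9 CPM at 12 h (replicate 1), while the other samples of those times had 0. Both 24 h samples had it, at 10.1 and 13.2 CPM, and at 96 h the values were 40.7, 49.3 and 0 CPM. The 3 h replicate 3 held 257 counts where the other 3 h samples held none, and without molecular identifiers the number of molecules behind such counts is not known. In the edgeR fit of all samples Plau was not called against 0 h at any time, with adjusted p between 0.33 and 1, while a fit of the 0 h and 24 h samples alone called it (edgeR adjusted p = 0.0904). DESeq2 called it at every time but 18 h, those being the times with at least 1 sample above 0. At 24 h its mean of 11.7 ± 2.23 CPM (SD, n = 2) was 7.74-fold the limit of 3 counts in the shallower 0 h sample. That limit covers counting error only, and leaves out a spread between samples such as that at 3 h.

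Serpine2, the inhibitor, stayed near the limit of detection. It had 0 counts in 9 libraries, 1 to 3 counts in 5 and more in 5, with at most 29 counts. The samples above 3 counts were replicates 1 and 2 at 3 h (9.29 and 5.51 CPM), replicate 1 at 6 h (6.53 CPM) and replicates 1 and 3 at 96 h (6.6 and 4.88 CPM). No sample of 0 h, 12 h, 18 h or 24 h was above 0.509 CPM. It was called at no time against 0 h (edgeR adjusted p from 0.416 to 1).

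Anxa2, the annexin A2 gene, was abundant in every library and moved within a narrow range. The fresh samples both had 691 CPM. In the order of replicate numbers the values were 594, 661 and 640 CPM at 3 h, 424, 520 and 463 CPM at 6 h and 308, 450 and 458 CPM at 12 h. They were 422, 618 and 563 CPM at 18 h, 780 and 814 CPM at 24 h and 850, 801 and 1020 CPM at 96 h. All samples of 3 h to 18 h were thus below the fresh samples, and all samples of 24 h and 96 h above them. How many of all genes tested separated from 0 h in these ways was not counted. In the edgeR fit of all samples, Anxa2 was not called against 0 h at any of these times. Ordered by mean, 96 h (892 CPM) overlapped 24 h (797 CPM), 24 h lay apart from 0 h (691 CPM), 0 h lay apart from 3 h (632 CPM), and 3 h, 18 h, 6 h and 12 h each overlapped the next.

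Against 0 h the lowest point of Anxa2 was 12 h, with a log2 fold change of -0.77 (SE 0.19, edgeR adjusted p = 0.0123), followed by 6 h with -0.56 (SE 0.19, adjusted p = 0.0888). Both passed the limit on p and stayed within 2-fold, so edgeR did not call them. Without a limit on fold, 9.58% of the genes tested were lower at 12 h and 4.68% at 6 h. The 3 h and 18 h samples gave log2 fold changes of -0.13 and -0.37, and the 24 h and 96 h samples gave 0.21 and 0.37, with edgeR adjusted p from 0.236 to 0.856. DESeq2 did call Anxa2 lower at 12 h, with a log2 fold change of -1 after rounding (DESeq2 adjusted p = 1.29e-06).

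From 12 h to 96 h, a span compared after the values had been seen, Anxa2 rose by a log2 fold change of 1.14 (SE 0.18, edgeR adjusted p = 0.000394), and the same-numbered samples differed by 1.46, 0.83 and 1.16. Without 12 h replicate 1, the lowest sample, the value was 0.98 with an adjusted p of 0.00199, just within 2-fold. In this span 1 of the 6 genes was called higher and 1 lower, and 13.5% of all genes tested were called in either direction. Stellate, hepatocyte and endothelial marker sums also differed between these times, at 4930 to 5850 and 2850 to 3230 CPM, 124 to 206 and 45 to 128 CPM, and 177 to 750 and 22.6 to 178 CPM. Their part in the result was not tested.

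S100a10, the p11 gene, had a single high point at 3 h. Fresh HSCs had 261 and 213 CPM (replicates 2 and 3). At 3 h the samples had 518, 697 and 768 CPM, at 6 h 75, 185 and 317 CPM, and at 12 h 66.7, 114 and 183 CPM. The 3 h samples lay above all 16 others, as they did for 2.58% of the genes tested. At 18 h the values were 115, 164 and 224 CPM, at 24 h 212 and 294 CPM, and at 96 h 175, 225 and 204 CPM. Apart from 3 h, each time overlapped the next in the order of means.

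From 3 h to 6 h S100a10 fell, with a log2 fold change of -1.78 (SE 0.43, edgeR adjusted p = 0.0295), and same-numbered samples differed by -2.78, -1.91 and -1.28. In the edgeR fit of all samples it was the only one of the 6 genes called between neighbouring times in culture. DESeq2 called 2 at this step, S100a10 and Plaur, and 8.88% of all genes. The background was 4.49% of genes called from 3 h to 6 h, 1.84% from 6 h to 12 h, 0.225% from 12 h to 18 h, 0.0396% from 18 h to 24 h and 2.72% from 24 h to 96 h. At those 4 later steps edgeR called 0 of the 6 genes, 1, 1, 1 and 2 had an unadjusted p under 0.05, and DESeq2 called 0, 1, 1 and 1, against 5.84%, 2.97%, 1.68% and 5.69% of all genes. The DESeq2 calls were Plau into and out of 18 h, where all its samples were at 0, and Plat from 24 h to 96 h. The fall reached a log2 fold change of -2.45 from 3 h to 12 h (SE 0.44, edgeR adjusted p = 0.00152), a span chosen after the values were seen, in which 2 of the 6 genes and 14.4% of all genes were called.

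The preceding gain from 0 h to 3 h was not called, with a log2 fold change of 1.48 (SE 0.50, edgeR adjusted p = 0.128). With the replicate number as a block it was 1.71 and was called (edgeR adjusted p = 0.00844), and the differences between same-numbered samples were 1.41 and 1.85. DESeq2 also called it (adjusted p = 0.0377), as did edgeR fitted to the 0 h and 3 h samples alone (adjusted p = 0.0269), where Plaur was not called. Without 6 h replicate 1, 6 h replicate 3 or 12 h replicate 1, edgeR called it too (adjusted p = 0.0484, 0.0733 and 0.0968). The sum of the endothelial markers was highest at 3 h as well, at 1060 to 3250 CPM against 742 to 1020 CPM at 0 h and 368 to 1050 CPM at 6 h. Not every marker followed the sum. Cdh5, Flt1 and Lyve1 had means of 65.7, 103 and 7.88 CPM at 3 h. They were higher later, at 159 CPM (18 h), 115 CPM (6 h) and 15.9 CPM (12 h). The other endothelial markers had their highest means at 3 h. None of the 10 markers was at 0 in all 3 h samples, and their part in the S100a10 values was not tested. At 12 h S100a10 had a log2 fold change of -0.97 against 0 h (SE 0.47, edgeR adjusted p = 0.189). DESeq2 gave -1.2 there and called it lower (DESeq2 adjusted p = 0.0506). For the 6, 18, 24 and 96 h samples its edgeR log2 fold changes were -0.30, -0.50, 0.09 and -0.24, with adjusted p from 0.544 to 1.

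Annexin A2 and p11 form 1 complex, so the difference between log2 S100a10 and log2 Anxa2 was taken within each library, where it does not depend on library scaling. It was -1.40 and -1.69 in fresh cells and -0.20, 0.08 and 0.26 at 3 h. At 6 h it was -2.49, -1.49 and -0.55, and at 12 h -2.20, -1.98 and -1.32. The means at 18 h, 24 h and 96 h were -1.70 ± 0.32 (SD, n = 3), -1.67 ± 0.29 (n = 2) and -2.14 ± 0.27 (n = 3). All 3 h samples lay above all samples of the other times. The values of different times may be compared with each other, but not read as relative amounts of the transcripts, and were not tested.

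**Figure D3:**
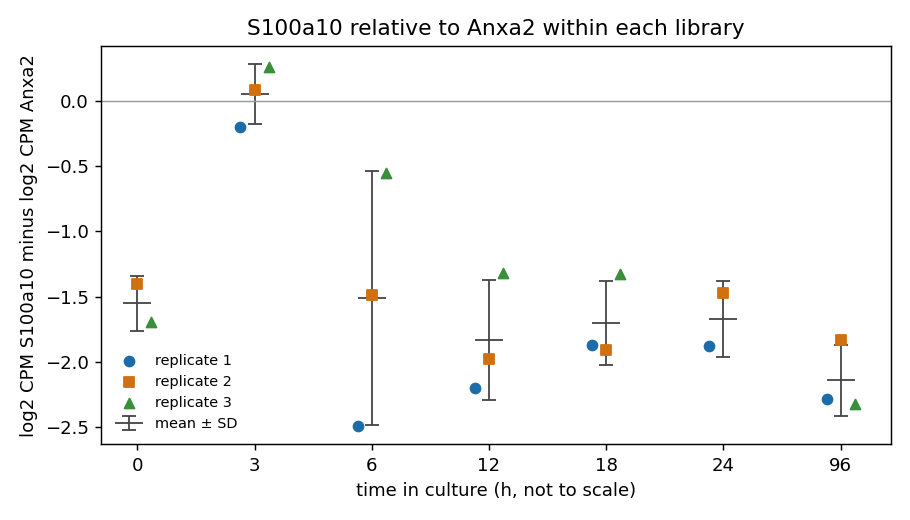
Log2 CPM of S100a10 minus log2 CPM of Anxa2 in each library (points, shaped by replicate number) against hours in culture, with the mean and SD per time. The 3 h samples sit between -0.20 and 0.26, and no other sample is above -0.55.

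Over the whole course, edgeR's test of any difference among the 7 times called 3 of the 6 genes, Plaur (adjusted p = 0.000542), Anxa2 (adjusted p = 0.00132) and S100a10 (adjusted p = 0.00467), and 27.4% of all genes tested. It did not call Plat (adjusted p = 0.118), Serpine2 (adjusted p = 0.212) or Plau (adjusted p = 0.433).

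The genes whose log2 CPM followed each of the 6 most closely over the 19 libraries were taken from 6724 or 6725 candidates averaging 20 CPM or more. Plaur was followed by Timp3, a metalloproteinase inhibitor (r = 0.97), Pinx1 (r = 0.97) and Gpatch4 (r = 0.96). Timp3 had a mean of 183 CPM in fresh cells, 5010 and 5130 CPM after 12 h and 18 h, and 1500 CPM at 96 h. Anxa2 was followed by Ppp1r12b (r = 0.89), Tns1 (r = 0.87) and Sipa1l1 (r = 0.86), and S100a10 by Csnk1a1 (r = 0.89), Rpn2 (r = 0.81) and Lmna, the lamin A and C gene (r = 0.80). Lmna, like S100a10, had its highest mean at 3 h, 524 CPM against 153 CPM at 0 h and 182 CPM at 6 h. The best values were lower for the sparse genes. They were 0.81, 0.80 and 0.80 for Plat with Cux1, Tinagl1 and P2ry14, 0.72, 0.69 and 0.69 for Serpine2 with Slc5a3, Yap1 and Cyp26b1, and 0.66 and 0.64 for Plau with Rnasek and Arhgap21. These correlations share libraries and depth and are descriptions. Over the 7 means in place of the 19 libraries, 1 of the 3 genes was again named for Plat and for Plaur and 0 for the others.

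Around these 6 genes, lists of the wider system were counted, where 26.9% of all genes tested were called in at least 1 comparison with 0 h. Of 16 genes of plasminogen and its further inhibitors and receptors, 5 had 0 counts in all libraries, including Plg, the plasminogen gene, and 6 of the 11 tested were called. The median log2 fold change of these 11 was -2.29 at 12 h and -0.70 at 96 h, against 0 and 0.07 for all genes. Serpinb2, which encodes the urokinase inhibitor PAI-2, had 1 and 6.03 CPM at 0 h, 0 at 3 h in all samples, then 29.1, 21.1 and 18.1 CPM at 6 h. It had 135, 206 and 287 CPM at 12 h, 304, 281 and 377 CPM at 18 h, 64.6 and 118 CPM at 24 h, and 0 in all 96 h samples. Serpinb2 thus had its high values at the same times as Plaur, and unlike Plaur was at 0 in every sample of 3 h and 96 h. Relative to fresh cells, its log2 fold change was 6.02 at 12 h (SE 0.73, edgeR adjusted p = 0.000132) and 6.63 at 18 h (SE 0.75, adjusted p = 7.82e-05). It was also called lower at 3 h and 96 h, at least 3.53-fold and 4.08-fold on the limit of 3 counts, but there the 0 h side rests on 4 and 12 counts. Eno1, which encodes an enolase that also binds plasminogen at the cell surface, rose to 232 ± 22.7 CPM at 96 h (SD, n = 3) from 30.9 ± 9.61 CPM at 0 h (n = 2), a log2 fold change of 2.92 (SE 0.44, edgeR adjusted p = 0.000322). The remaining 4 called genes, Serpinf2, Vtn, Mrc2 and Serpini1, were lower and averaged under 20 CPM over all libraries. Serpinf2 and Vtn are known hepatocyte transcripts. The hepatocyte markers summed to 4330 to 8760 CPM at 0 h and to 124 to 206 CPM at 12 h, and their part in these calls was not tested.

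Complexes of the proteases with their inhibitors are taken up by receptors of the cell surface. Lrp1, the one that clears urokinase and tPA bound to their inhibitors, fell from 1500 ± 6.24 CPM at 0 h (SD, n = 2) to 240 ± 44.3 CPM at 24 h (n = 2), a log2 fold change of -2.64 (SE 0.28, edgeR adjusted p = 1.45e-05). At 96 h it had 563 ± 82.5 CPM (SD, n = 3), still called lower, with a log2 fold change of -1.41 (SE 0.24, edgeR adjusted p = 0.000902).

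Of 12 known substrates of plasmin, urokinase or tPA, 10 were tested and 8 called, 4 higher and 4 lower, against 26.9% of all genes tested. Mmp3 and Mmp13, whose pro-enzymes plasmin can activate, were highest at 96 h. Mmp3 had 617, 700 and 868 CPM at 96 h and 0 and 3.01 CPM at 0 h, and all its samples between had 65.9 CPM or less. Mmp13 had means of 264 ± 17 CPM at 12 h and 526 ± 162 CPM at 96 h (SD, n = 3 each) against 5.52 ± 6.39 CPM at 0 h (n = 2), and its log2 fold change at 96 h was 6.71 (SE 0.71, edgeR adjusted p = 1.27e-05). Bdnf, whose precursor plasmin cleaves, and Thbs1, thrombospondin 1, rose with log2 fold changes at 12 h of 5.37 (SE 0.61) and 3.80 (SE 0.51), with edgeR adjusted p of 1.41e-05 and 7.96e-05. Hgf, the hepatocyte growth factor gene, fell from 1270 ± 298 CPM at 0 h (SD, n = 2) to 55.3 ± 2.34 CPM at 24 h (n = 2), a log2 fold change of -4.52 (SE 0.31, edgeR adjusted p = 2.71e-07). Fn1, the fibronectin gene, fell to 52.8 ± 9.44 CPM at 96 h (SD, n = 3) from 292 ± 75.8 CPM (n = 2), with a log2 fold change of -2.47 (SE 0.41, edgeR adjusted p = 0.000781). Mmp14 and Pdgfd were also called lower. The median log2 fold change of the 10 was -0.95 at 12 h and -0.33 at 96 h.

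The relatives of Anxa2 and S100a10 were counted as well. Among all genes tested, 26.9% were called in at least 1 comparison with 0 h. Of 11 other annexins 8 were tested and 2 called, both higher, which is near that share. Anxa3 rose from 56.7 ± 16.3 CPM at 0 h (SD, n = 2) to 402 ± 117 CPM at 96 h (n = 3), a log2 fold change of 2.82 (SE 0.36, edgeR adjusted p = 6.88e-05). Anxa5 was higher at 12 h, when Anxa2 was at its lowest, with a log2 fold change of 1.08 (SE 0.27, edgeR adjusted p = 0.013). Of 13 other S100 genes 6 were tested and 3 called, all higher. S100a6, which encodes calcyclin, had 30.1 and 84.9 CPM at 0 h, 29.5, 28.3 and 0 CPM at 3 h, and 2180, 3030 and 2790 CPM at 96 h. Its values were thus among its lowest at 3 h, when those of S100a10 were highest, and its log2 fold change at 96 h was 5.55 (SE 1.07, edgeR adjusted p = 0.0029). S100a11 rose to 1290 ± 427 CPM at 96 h (SD, n = 3) from 250 ± 92.7 CPM (n = 2), a log2 fold change of 2.37 (SE 0.35, edgeR adjusted p = 0.000304). The median log2 fold change at 96 h was 0.09 over the 8 annexins and 2.47 over the 6 S100 genes, against 0.07 over all genes. No difference between 2 genes was tested.

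**Figure D4:**
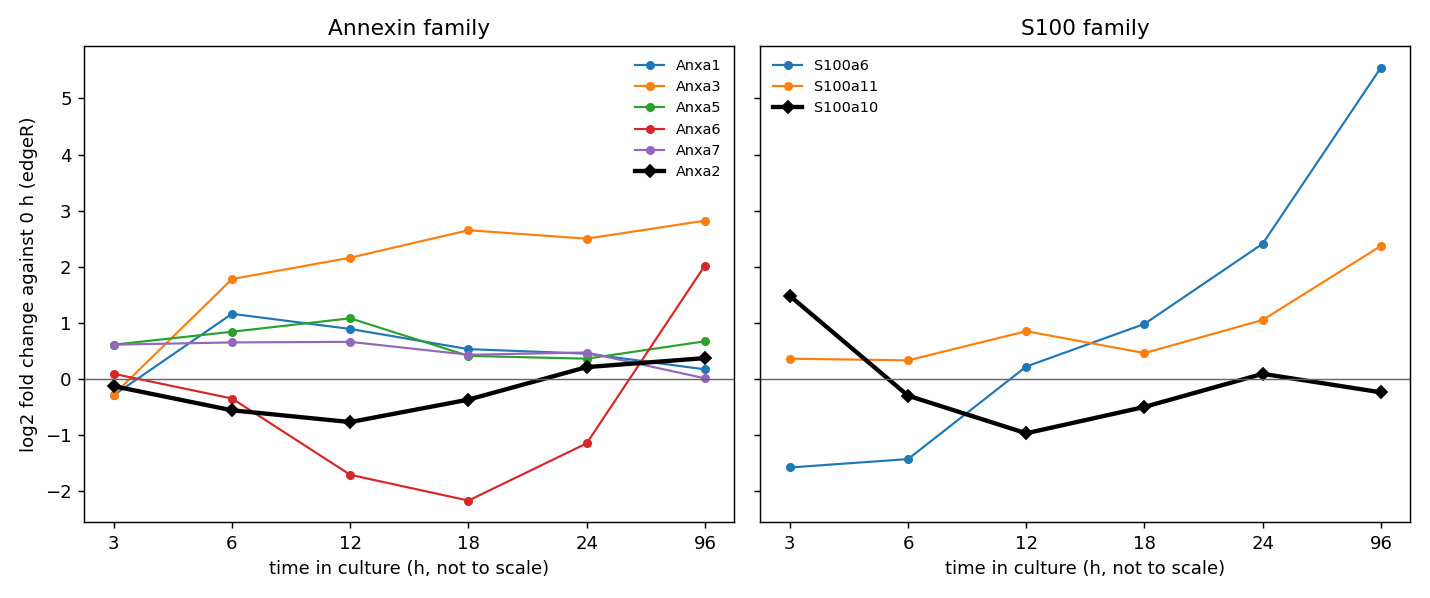
Log2 fold change against 0 h (edgeR) of the annexin genes (left) and S100 genes (right) averaging 20 CPM or more, at 6 times in culture, with Anxa2 and S100a10 in black. S100a6 goes to 5.55 and S100a11 to 2.37 at 96 h, where S100a10 is at -0.24, and Anxa3 goes to 2.82 where Anxa2 is at 0.37.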

How the data were processed

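RNA from 19 mouse HSC samples was sequenced by the authors from the 3' end of transcripts (QuantSeq, no molecular identifiers in the counts used here). Per the labels and the study's methods, the deposited raw counts per gene came from STAR alignment to GRCm38.p6 and StringTie; the counting program and its strand setting are not given in the sources used here. Identifiers were matched to symbols for 55141 of 55487 genes.

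The deposited counts were filtered (filterByExpr, 15138 genes), TMM-scaled and fitted with edgeR 4.0.16 (quasi-likelihood, time as the only factor, 1 fit of all 19 samples) in R 4.3.3. A standard error is the log2 fold change divided by the square root of F. The p-values are Benjamini-Hochberg adjusted over all genes tested in a comparison. With this spread (biological coefficient of variation 1.06) and 2 or 3 samples a time, the precision for genes with zeros is low. Limits of 3 counts cover counting error only. DESeq2 1.42.0, no filter, no TMM, a replicate block, the isolation date, each comparison fitted alone and leaving out each sample were the alternatives. The code was tested on simulated data. The 6 genes and the lists were chosen with earlier results of these data known.

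All 6 genes were named. From each list, up to 6 called genes averaging 20 CPM or more were named by largest absolute fold change, and others called outside that rule (Serpinf2, Vtn, Mrc2, Serpini1, Mmp14, Pdgfd, Serpinc1, Serpind1, S100a4) were named after their values were seen. A few genes that these rules name are not reported here. Replicate numbers come from the labels, where replicates 1 and 3 share an isolation date and replicate 2 has a later one. Samples with the same number therefore come from the same isolation day. The mean correlation of their deviations from the time means was 0.014 over 51 pairs, against -0.007 over 103 pairs with different numbers. The latter include pairs of replicates 1 and 3, which share a date, so these values do not compare isolation days. Samples of 1 time correlated with r from 0.77 to 0.87 over genes.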

Additional observations from a re-analysis of the deposited data

How the results depend on the processing

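With DESeq2, the 6 genes called higher against 0 h numbered 3 at 3 h, 2 at 6 h, 12 h and 24 h, and 3 at 96 h, and lower 2 at 12 h. It also called 1 higher in the steps from 3 to 6 h (Plaur), from 18 to 24 h (Plau) and from 24 to 96 h (Plat), and 1 lower from 12 to 18 h (Plau). Both Plau calls rest on 18 h samples that were all at 0, with DESeq2 log2 fold changes of 23.5 and -22.17. At 12 h Plau was above 0 in 1 of 3 samples. Fitting only the samples of the times compared gave 2 higher at 24 h (Plau and Plaur) and 1 higher in the steps from 3 to 6 h and 6 to 12 h (Plaur) and 24 to 96 h (Plat). The count of 1 higher at 3 h and 96 h was then S100a10 and Plat in place of Plaur. This fit was not run for the test of all 7 times. The replicate block gave 2 higher at 3 h and changed no other count. An adjusted p under 0.05 with no fold limit gave 1 lower at 12 h and 2 lower for 12 h against 3 h. Leaving out each sample gave 0 to 2 higher at 3 h, 0 to 1 lower at 12 h, 0 to 1 higher for 6 h against 3 h, and 0 to 1 both higher and lower for 96 h against 12 h.

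Small values changed sign. Against 0 h, Anxa2 at 24 h was -0.01 and S100a10 at 24 h was -0.13 with DESeq2, S100a10 at 96 h was 0.03 with the block, and leaving out each sample gave -0.87 to 0.08 for S100a10 at 6 h and -0.16 to 0.31 at 24 h. The cause was not tested. Scaling by library size alone, no filter and the isolation date changed no count of calls. Without TMM, 3 of the 42 mean levels, all of Anxa2, moved by more than their SD. The median log2 fold change of all genes against 0 h was 0.24 at 24 h and 0.22 at 96 h with library size alone, and -0.15 at 12 h with DESeq2.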

Other observations

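Genes next to the plasminogen system also moved in culture. Of 6 coagulation genes 4 were tested and all 4 were called higher at some time. Among all genes tested, 26.9% were called in either direction in at least 1 comparison with 0 h. The share called higher at some time was not counted. Procr, the endothelial protein C receptor gene, had 0 counts in both fresh samples and a mean of 98.5 ± 44.7 CPM at 12 h (SD, n = 3). This was 65.4-fold the limit of 3 counts, which covers counting error only. F3, the tissue factor gene, rose from 4.89 ± 0.182 CPM at 0 h (SD, n = 2) to 191 ± 97.6 CPM at 12 h (n = 3), a log2 fold change of 5.29 (SE 1.03, edgeR adjusted p = 0.00206). Thbd, the thrombomodulin gene, and F2r, a thrombin receptor gene, were highest at 96 h, with log2 fold changes of 2.19 (SE 0.37) and 1.39 (SE 0.31) and edgeR adjusted p of 0.00106 and 0.00865. The 10 endothelial markers summed to 742 to 1020 CPM at 0 h, 177 to 750 CPM at 12 h and 22.6 to 178 CPM at 96 h. Not every marker followed the sum. Cdh5 had a mean of 34.4 CPM at 0 h and 132 CPM at 12 h. Pecam1, Flt1, Lyve1 and Tek also had higher means at 12 h than at 0 h, and the other markers had lower ones. The part of endothelial cells in these results was not tested.

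Of 8 genes listed as further extracellular serine protease inhibitors, 7 were tested and 5 called, 1 higher and 4 lower, against 26.9% of all genes tested. The 1 higher was Serpinh1, a serpin by family that encodes the collagen chaperone HSP47 and not an extracellular inhibitor. Serpinh1 rose from 916 ± 115 CPM at 0 h (SD, n = 2) to 2230 ± 360 CPM at 12 h (n = 3), a log2 fold change of 1.29 (SE 0.29, edgeR adjusted p = 0.00626). Serping1, the C1 inhibitor gene, fell from 1170 ± 67.4 CPM to 79.2 ± 19.4 CPM at 24 h (SD, n = 2 each), a log2 fold change of -3.88 (SE 0.34, edgeR adjusted p = 1.97e-06). Tfpi, the tissue factor pathway inhibitor gene, was lower at 6 h, with 19.2 ± 9.5 CPM (SD, n = 3) against 98.3 ± 22.6 CPM at 0 h (n = 2) and 99.9 ± 26.2 CPM at 96 h (n = 3). Its log2 fold change at 6 h was -2.36 (SE 0.44, edgeR adjusted p = 0.00206). The other called genes, Serpinc1 and Serpind1, are hepatocyte transcripts averaging under 20 CPM over all libraries. The 10 hepatocyte markers summed to 4330 to 8760 CPM at 0 h and to 124 to 206 CPM at 12 h, and their part in these calls was not tested.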
